A study of Mus musculus with 8 samples.

Results

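The genes described here are 5 cytokine receptor chains (Il7r, Il4ra, Il6ra, Il21r and Ifngr1) and 4 feedback inhibitors of cytokine signalling (Socs1, Socs2, Socs3 and Cish), seen through the binding of the zinc finger transcription factor Bcl11b in mouse thymocytes. DNA bound by Bcl11b was pulled down with a rabbit antibody and sequenced (chromatin immunoprecipitation sequencing, ChIP-seq), and the reads were counted in short intervals of equal width. An interval belonged to a gene when the nearest protein-coding gene body to its midpoint was that gene and lay within 100 kb. By this rule 100 of the 63098 intervals of the normalized table belonged to the 9 genes, out of 116 in the full count table. The other 16 had mean counts of 4.33 to 10.5 reads per library, below the filter on low counts, and were not tested.

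The thymocytes came from mice heterozygous for a mutant Bcl11b allele (Bcl11b +/N440K, the N440K substitution in 1 copy of the gene) and from mice with 2 normal alleles (Bcl11b +/+, called wild type), with 3 ChIP libraries per genotype. The study's question for these libraries was which Bcl11b binding sites differ between the genotypes. The labels give freshly isolated thymocytes and name no sorting, age or sex. They do not say whether replicates were separate animals, and the p-values therefore cover the variation among these 6 libraries, part or all of which may be technical. The mutant cells still carry a normal allele, and whether the antibody binds both proteins equally was not tested. As no sorting is named, fewer cells of a type and less binding per cell cannot be told apart. Total counts ranged from 1812952 to 2123877 in N440K and from 1787899 to 2661343 in wild type libraries, and the 2 input libraries were not analysed here.

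Cytokine receptors of this class have no enzyme activity of their own. Ligand binding brings together Jak kinases held by the receptor chains, these phosphorylate Stat transcription factors, and the Stats enter the nucleus and switch on genes that include those of the Socs family and Cish. The Socs and Cish proteins then bind the receptors or the kinases and shut the signal down. In the thymus, interleukin-7 receptor signalling keeps the earliest thymocytes alive and is switched off and on again as they mature, and Socs1 restrains cytokine responses during that passage.

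The promoters that bear a Stat word are printed because the Stat factors are the link from the receptors to the inhibitors. Promoter windows (250 bases before to 50 after the gene start, RefSeq, assembly GRCm38.p6, the assembly behind mm10) were found for 8 of the 9 genes, the exception being Socs2. Each of the 8 windows overlapped at least 1 tested interval. They were searched on both strands for TTCNNNGAA (Stat), TGACCA (a Bcl11 family word), TGTGGT (Runx) and GGAAGT (Ets). The Stat word was in 3 of the 8 windows, those of Cish, Socs3 and Il7r, and in 8.30% of the 32851 windows of the table. Capitals mark all motif matches in these 3 windows, which do not overlap each other.
Socs3 (chr11:117969317-117969616, minus strand): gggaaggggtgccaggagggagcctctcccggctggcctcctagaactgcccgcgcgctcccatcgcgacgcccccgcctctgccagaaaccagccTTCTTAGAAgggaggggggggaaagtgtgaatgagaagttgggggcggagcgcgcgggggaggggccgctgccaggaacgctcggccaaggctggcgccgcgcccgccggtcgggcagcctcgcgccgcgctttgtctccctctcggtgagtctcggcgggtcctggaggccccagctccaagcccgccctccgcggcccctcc
Cish (chr9:107296409-107296708, plus strand): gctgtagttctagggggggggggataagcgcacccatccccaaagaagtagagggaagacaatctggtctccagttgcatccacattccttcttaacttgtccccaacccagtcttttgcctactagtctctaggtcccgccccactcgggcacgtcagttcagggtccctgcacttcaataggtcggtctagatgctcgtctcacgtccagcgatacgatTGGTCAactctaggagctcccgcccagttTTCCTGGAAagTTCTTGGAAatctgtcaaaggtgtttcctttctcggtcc
Il7r (chr15:9529827-9530126, minus strand): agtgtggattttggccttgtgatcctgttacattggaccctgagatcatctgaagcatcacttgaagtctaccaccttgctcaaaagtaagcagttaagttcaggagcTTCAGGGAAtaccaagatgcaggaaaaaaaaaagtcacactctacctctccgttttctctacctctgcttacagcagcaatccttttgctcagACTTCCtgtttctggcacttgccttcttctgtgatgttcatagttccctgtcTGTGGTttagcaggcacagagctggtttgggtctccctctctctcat
The Socs3 window holds 1 Stat match, beginning 154 bases before the gene start, and has a GC content of 73.3%, against a median of 52.7% over all windows. The Cish window holds 2 Stat matches at and just after the start, and the Bcl11 word 29 bases before it. That Bcl11 word was in 13.6% of all windows and in 1 of the 8. In the Il7r window a Stat match 142 bases before the start stands with an Ets match 49 bases before it and a Runx match just after it. Elsewhere the Runx word was in the Il21r window and the Ets word, at 2 places, in the Il6ra window, and the Il4ra, Ifngr1 and Socs1 windows held none of the 4 words. The Runx word was in 16.8% and the Ets word in 23.8% of all windows. A match describes letters, not a bound site.

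Bcl11b signal at these genes was mostly strong, and it was spread unevenly among them. The median interval had 17.1 CPM (read counts scaled to a common library size by the trimmed mean of M values, TMM), against 11.8 CPM over all tested intervals. Of the 100 intervals, 69 lay above that overall median and 19 above their 90th percentile. Summed over its intervals, Socs1 carried the most signal and Il7r the least, at 474 and 14.9 CPM as means of the 6 libraries (sums are in CPM of counts assigned to genes). Between them, in falling order, stood Ifngr1 with 431, Il21r with 377, Socs3 with 336, Il4ra with 234, Il6ra with 197, Socs2 with 69.4 and Cish with 54.3 CPM. Neighbours in this order overlapped in their ranges over the 6 libraries for Socs1 and Ifngr1, Ifngr1 and Il21r, and Il21r and Socs3. The ranges of all other neighbours did not meet. A sum depends on the number of intervals: Ifngr1 held 26 with a median of 13.1 CPM, and Il4ra 8 with a median of 25.4 CPM. Socs1 stood above 99.1% of the 13440 genes with a tested interval, and Il7r above 15.3%.

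**Figure D1:**
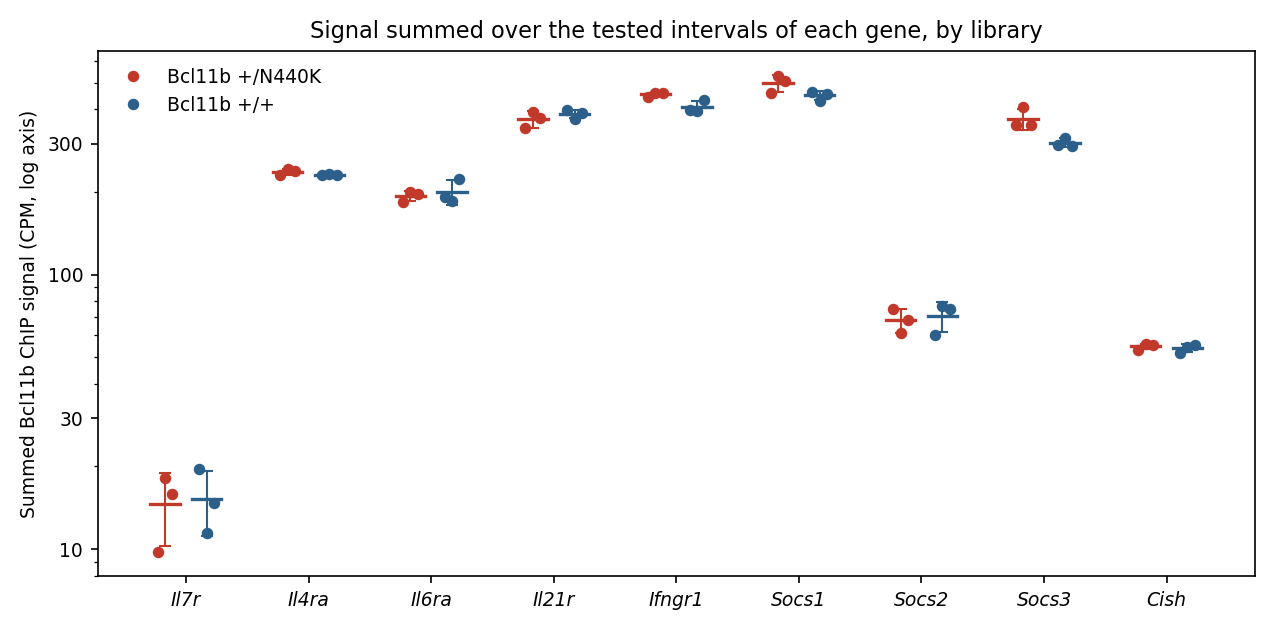
Bcl11b ChIP signal summed over the tested intervals of each gene (CPM, log axis), with N440K libraries in red and wild type libraries in blue. Points are libraries, horizontal bars means and whiskers SD (n = 3 each). Socs3 and Ifngr1 have no overlap between the genotypes. At Socs3 the N440K libraries lie at 349.7 to 408 CPM and the wild type libraries at 295 to 316 CPM. At Ifngr1 the N440K libraries lie at 445 to 458 CPM and the wild type libraries at 394 to 434 CPM.

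Many of the intervals lay outside the gene bodies, though few were far away. Of the 100 intervals 39 lay inside the gene body, against 64.2% of all tested intervals assigned to a gene. Only 10 lay more than 50 kb away, all at Ifngr1. The share inside also depends on gene length, and the bodies of Socs1, Socs3 and Cish are only 1.7, 4.3 and 6.1 kb long. For genes with a known start, 22 of 96 intervals lay within 1 kb of it (22.9%), against 37.4% overall. The intervals are not evenly placed, since Ifngr1 alone holds 26, of which 23 are outside the gene body.

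Between the genotypes, Bcl11b signal passed the edgeR test as higher in N440K thymocytes at Socs3, and at no other of the 9 genes. With DESeq2 it passed at none of them. Of the 100 intervals 2 were called at a Benjamini-Hochberg adjusted p under 0.05 (edgeR quasi-likelihood test), both at Socs3 and both higher, where the whole table had 1.14% called, 0.46% higher and 0.681% lower. No interval was called lower by edgeR, DESeq2 or limma voom, and 2, 0 and 2 were lower at an unadjusted p under 0.05 in these tools. At an unadjusted edgeR p under 0.05 there were 12 intervals, against 12.7% of all. Libraries did not overlap between genotypes at 17 intervals, against 17.3% of all. N440K was the higher genotype at 14 of the 17 (6 each at Socs3 and Ifngr1, 1 each at Socs1 and Cish) and the lower at 3 (1 each at Socs3, Il6ra and Il21r), against 8.34% and 8.95% of all tested intervals. The median log2 fold change (N440K over wild type) was 0.10, with 64 positive and 36 negative, against 0.00 and 50.5% positive over all tested intervals. Strong intervals in general lay slightly higher, with a median of 0.06 above the 75th percentile of level. The 61 intervals of receptor genes had a median of 0.06 and the 39 of inhibitor genes 0.16, but neither group was uniform. Median log2 fold changes were 0.29 at Socs3, 0.20 at Socs1, 0.01 at Cish and -0.04 at Socs2. Among receptors they were 0.17 at Ifngr1, 0.12 at Il4ra, -0.01 at Il7r, -0.03 at Il6ra and -0.08 at Il21r. Positive intervals were 20 of 26 at Ifngr1, 14 of 17 at Socs3 and 11 of 13 at Socs1. They were 6 of 15 at Il21r, 3 of 10 at Il6ra and 5 of 8 at Il4ra. At Cish they were 3 of 5, at Socs2 1 of 4 and at Il7r 1 of 2.

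**Figure D2:**
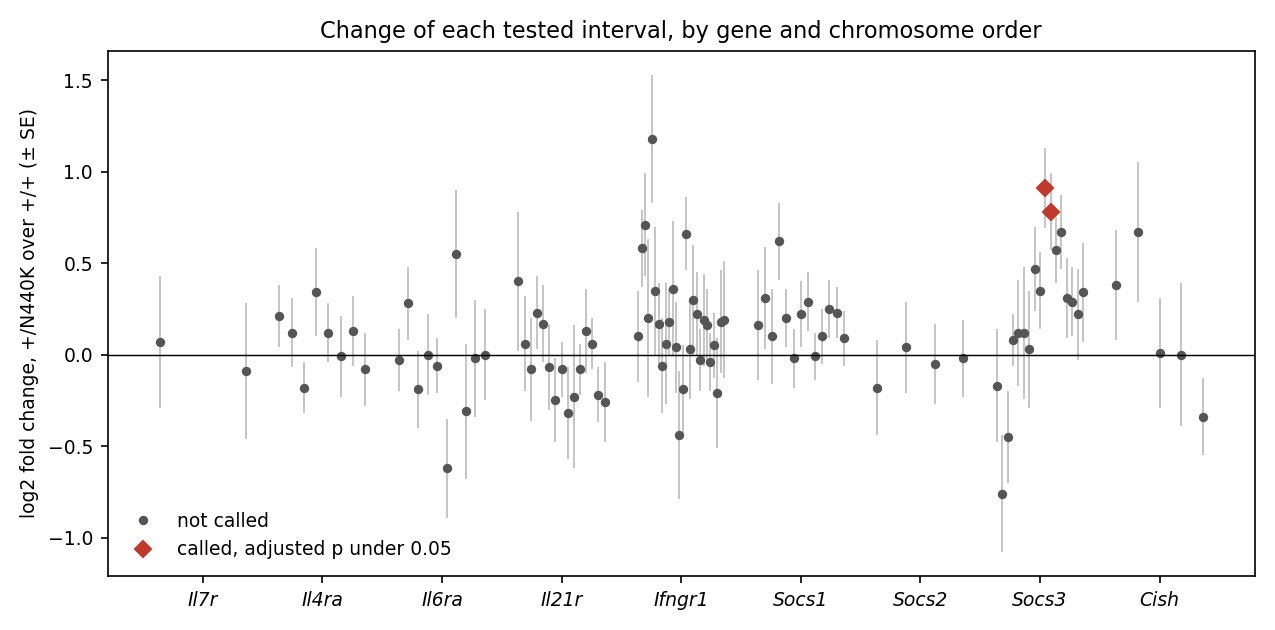
log2 fold change, N440K over wild type, of each of the 100 tested intervals with its SE, grouped by gene and in chromosome order within a gene. Red diamonds are the 2 called intervals, both at Socs3 (0.91 and 0.78); the other intervals run from -0.76 to 1.18.

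**Figure D3:**
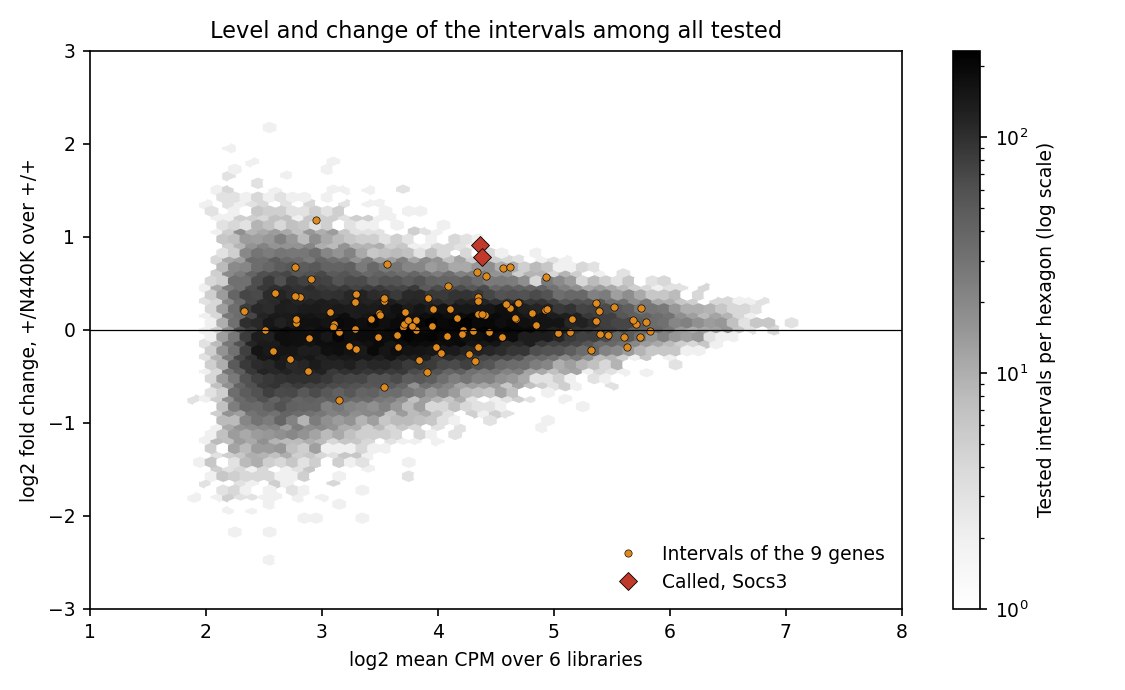
Mean level over the 6 libraries (log2 CPM) against log2 fold change, N440K over wild type, for all 63098 tested intervals (grey hexagons, darker for more intervals) and for the 100 intervals of the 9 genes (orange). The 2 called Socs3 intervals (red diamonds) lie at 0.91 and 0.78, and the intervals of the 9 genes spread to both sides of 0.

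Socs3 encodes an inhibitor that binds cytokine receptor chains and blocks Jak activity. Its gene body (chromosome 11, 117966079 to 117970336, mm10) held 7 tested intervals and 10 more lay outside, up to 37.6 kb away. Signal summed over the 17 intervals was 349.7, 408 and 350.0 CPM in the N440K libraries, against 296, 316 and 295 CPM in the wild type libraries. All 3 N440K libraries stood above all 3 wild type libraries. The log2 fold change of the sum was 0.29 ± 0.08 (SE; edgeR quasi-likelihood test over 13440 genes, adjusted p = 0.0316), a 1.22-fold higher signal, where 3.34% of genes were called, 1.06% higher and 2.28% lower. The call was lost with DESeq2 (adjusted p = 0.0988) and without wild type replicate 1 (0.116), wild type replicate 3 (0.0725), N440K replicate 1 (0.0616) or N440K replicate 2 (0.204), while the log2 fold change stayed between 0.21 and 0.32.

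The 2 called intervals of Socs3 lay just past the gene start. The RefSeq promoter table places that start at 117969366 on the minus strand, within the gene body. The called interval with the smallest p, 0.85 kb downstream of the start (117968419 to 117968619), had 27.7, 28.1 and 24.5 CPM in N440K libraries, against 17.4, 15.2 and 10.7 CPM in wild type libraries. Its log2 fold change was 0.91 ± 0.22 (SE; edgeR adjusted p = 0.0166), or 1.88-fold. The interval beside it, 0.63 kb downstream (117968635 to 117968835), had 24.4, 26.2 and 28.6 CPM in N440K libraries, against 14.9, 14.4 and 16.7 CPM in wild type libraries, and the log2 fold change there was 0.78 ± 0.21 (SE; adjusted p = 0.0409, edgeR). In both, the lowest N440K library was above the highest wild type library. Neither was called with DESeq2 (adjusted p = 0.358 and 0.544), and limma voom called the first only. Without wild type replicate 3, N440K replicate 1 or N440K replicate 2 the first was not called (adjusted p = 0.150, 0.0898 and 0.0559), and the second was not called without any of the 6 libraries in turn (0.0755 to 0.181).

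The neighbouring intervals of the Socs3 gene body lay on the same side. All 7 had a positive log2 fold change, from 0.29 to 0.91 with a median of 0.57. At the gene start itself, 1 of the 2 intervals that overlap the printed promoter (117969241 to 117969441) had 30.5, 37.2 and 23.4 CPM in N440K libraries, against 18.0, 21.8 and 16.7 CPM in wild type libraries (log2 fold change 0.67 ± 0.20, SE; edgeR adjusted p = 0.0857). Its libraries did not overlap but it did not pass the test, except without N440K replicate 3 (adjusted p = 0.0489). The other interval on the promoter (117969610 to 117969810) had 18.8, 31.1 and 17.7 CPM in N440K libraries, against 19.8, 15.6 and 18.9 CPM in wild type libraries. The genotypes overlapped there (log2 fold change 0.31 ± 0.22, SE; adjusted p = 0.604, edgeR). These intervals are spaced closely enough that a DNA fragment can be counted in more than 1 of them, so they are not independent. With only intervals at least 500 bp apart kept within a gene, the Socs3 sum had a log2 fold change of 0.24 and was not called (edgeR adjusted p = 0.109).

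The strongest Socs3 interval, 17 kb downstream of the start, had 49.3, 67.1 and 54.7 CPM in N440K libraries, against 54.5, 52.7 and 54.1 CPM in wild type libraries, and the genotypes overlapped. The 3 intervals more than 30 kb away had log2 fold changes of -0.17, -0.76 and -0.45, and none was called. Among them the interval at 117928802 to 117929002 had 5.54, 8.54 and 5.73 CPM in N440K libraries, against 11.2, 13.2 and 9.01 CPM in wild type libraries, without overlap (edgeR adjusted p = 0.279). A test of whether the intervals of a gene differ in their change gave Socs3 an adjusted p = 0.518 by the Simes statistic and 0.0258 by the F statistic of edgeR's diffSpliceDGE. The F statistic was added after the data had been seen, and called 1.61% of 10160 genes; Simes called 0.404%. By Simes 0 of the 9 genes passed, and Socs3 was the 1 gene under an unadjusted 0.05. Neither called Socs3 interval passed when tested against the rest of its gene (diffSpliceDGE adjusted p = 0.431 and 0.655).

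**Figure D4:**
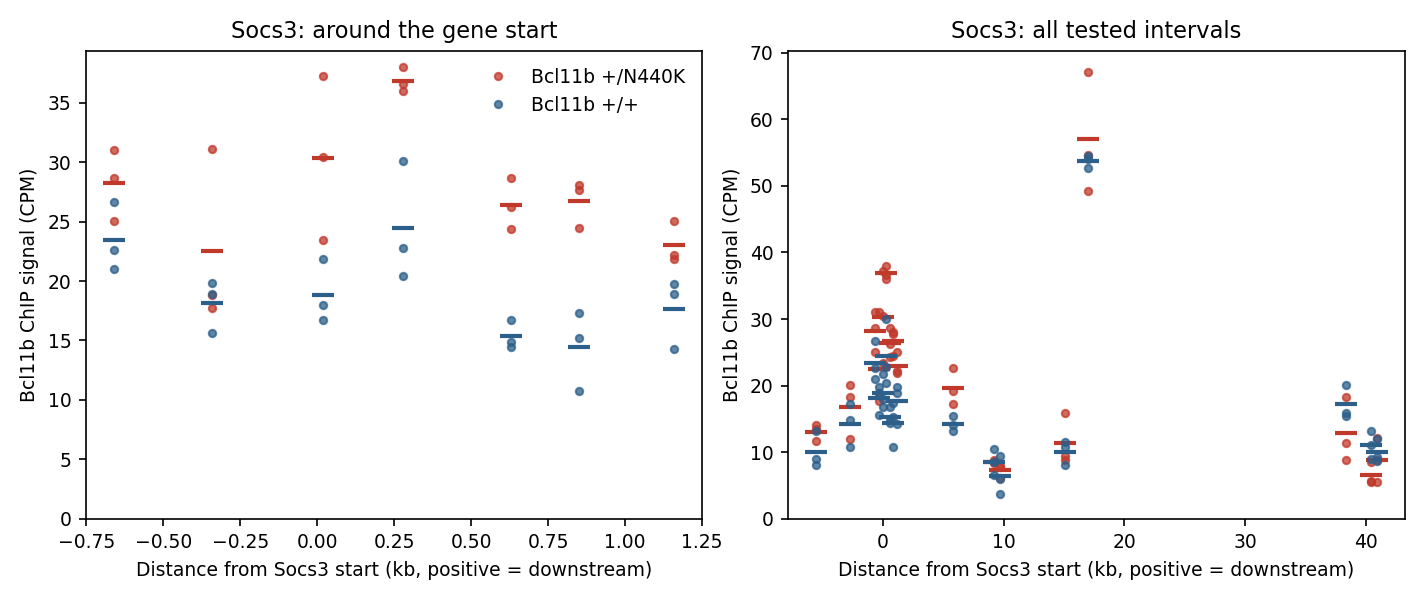
Bcl11b ChIP signal (CPM) at the tested intervals of Socs3 against distance from the gene start (kb), for the gene body (left) and all 17 intervals (right). Points are libraries and bars are means of 3, N440K in red and wild type in blue; between 0.02 and 0.85 kb downstream of the start the red points lie above the blue ones, while at 17 kb they mix.

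Socs1, the inhibitor that acts directly on Jak kinases, had the highest summed signal of the 9 genes. By single interval the lead was small, with strongest means of 57.0 CPM at Socs1, 55.4 at Socs3 and 53.6 at Il21r. The Socs1 gene (chromosome 16, 10783808 to 10785536) is small, and 7 of its 13 intervals lay within 1.5 kb of the start. As at Socs3, a DNA fragment can be counted in more than 1 of these. The strongest, 0.41 kb downstream of the start, had 54.3, 60.4 and 55.7 CPM in N440K libraries, against 58.9, 60.9 and 51.9 CPM in wild type libraries. It stood above the 90th percentile of all intervals and the genotypes overlapped (log2 fold change -0.01 ± 0.13, SE; edgeR adjusted p = 0.984). The interval at the Socs1 start, which also stood above the 90th percentile, had a log2 fold change of 0.10 ± 0.15 (SE; adjusted p = 0.843, edgeR). The summed signal was 459.6, 530.5 and 507.5 CPM in N440K libraries, against 462.6, 429.8 and 456.5 CPM in wild type libraries, with overlap through N440K replicate 1. Its log2 fold change of 0.15 ± 0.07 (SE) did not pass the test (edgeR adjusted p = 0.288), with a 95% interval of 1.01-fold to 1.22-fold. That range is not adjusted for the number of genes, and the unadjusted edgeR p was 0.0415. The Socs1 interval with the smallest p lay 13.6 kb downstream of the start and had 28.8, 25.02 and 19.8 CPM in N440K libraries, against 16.1, 15.2 and 16.3 CPM in wild type libraries. The genotypes did not overlap there, and the adjusted p was 0.146 (edgeR).

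The profile of the Socs1 sum over the 6 libraries was most like those of Spn, Mapk6 and Nek1, with Pearson r of 0.99, 0.969 and 0.965 among 4137 genes with at least 5 tested intervals. These are the highest of many correlations over 6 points that share libraries and depth, and are given as a description.

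Socs2, which restrains growth hormone signalling, and Cish, an inhibitor induced through Stat5, carried less signal than the other inhibitors, though their sums stood above those of 67.2% and 58.3% of genes. The 4 Socs2 intervals lay at or just beyond the higher-coordinate end of the gene body (chromosome 10, 95383903 to 95417321). The strongest, 1.3 kb beyond that end, had 26.6, 17.1 and 21.3 CPM in N440K libraries, against 16.7, 25.5 and 22.8 CPM in wild type libraries, overlapping throughout. The interval with the smallest p at Socs2, inside the gene, had a log2 fold change of -0.18 ± 0.26 (SE; adjusted p = 0.84, edgeR), and the one nearest the gene end 0.04 ± 0.25 (SE; adjusted p = 0.97, edgeR). The Socs2 sum had a log2 fold change of -0.06 ± 0.13 (SE; adjusted p = 0.874; 95% interval 0.809-fold to 1.14-fold). At Cish (chromosome 9, 107296659 to 107302784) the interval at the start had 11.07, 10.98 and 7.81 CPM in N440K libraries, against 7.44, 11.9 and 9.44 CPM in wild type libraries. The strongest Cish interval lay 10.4 kb beyond the gene and had 16.6, 20.7 and 15.6 CPM in N440K libraries, against 24.2, 23.1 and 19.7 CPM in wild type libraries. An interval 0.3 kb before the Cish gene, which reaches into the printed promoter, had 7.75, 6.10 and 10.9 CPM in N440K libraries, against 6.82, 2.47 and 6.87 CPM in wild type libraries. All 3 overlapped between genotypes and none passed, and the Cish sum had a log2 fold change of 0.02 ± 0.13 (SE; adjusted p = 0.97; 95% interval 0.848-fold to 1.21-fold).

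Among the receptors, Il7r encodes the alpha chain of the interleukin-7 receptor, on which early thymocytes depend, yet it was the least bound. Of its 5 intervals 2 were tested. The interval at the start (chromosome 15, 9529789 to 9529989) had 4.43, 7.93 and 8.85 CPM in N440K libraries, against 5.58, 6.18 and 8.16 CPM in wild type libraries. The other, 3.7 kb upstream (9533502 to 9533702), had 4.98, 9.76 and 6.25 CPM in N440K libraries, against 13.0, 4.94 and 5.58 CPM in wild type libraries. Both lay below the 25th percentile of tested intervals by level and overlapped between genotypes. The log2 fold change of the Il7r sum was -0.03 ± 0.27 (SE; edgeR adjusted p = 0.975), and its 95% interval, the widest of the 9 genes, ran from 0.685-fold to 1.41-fold.

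Il4ra, the shared alpha chain for interleukin-4 and interleukin-13, and Il21r, the interleukin-21 receptor, are neighbours on chromosome 7, 23.8 kb apart, and together held 23 intervals. The strongest Il4ra interval, 4.71 kb downstream of its start (125556881 to 125557081), had 49.8, 42.7 and 46.9 CPM in N440K libraries, against 52.7, 56.0 and 49.4 CPM in wild type libraries. The strongest Il21r interval, 27.1 kb downstream of its start (125630433 to 125630633), had 49.3, 60.4 and 46.9 CPM in N440K libraries, against 57.6, 52.7 and 54.5 CPM in wild type libraries. Both stood above the 90th percentile of all intervals, and both overlapped between genotypes. At the gene starts, Il4ra had 31.0, 35.4 and 31.8 CPM in N440K libraries, against 26.6, 31.7 and 25.8 CPM in wild type libraries. At its own start Il21r had 29.9, 26.2 and 22.9 CPM in N440K libraries, against 27.3, 20.2 and 21.0 CPM in wild type libraries. The genotypes overlapped at both starts. The smallest p among Il4ra intervals was at 0.34 ± 0.24 on the log2 scale (SE; adjusted p = 0.606, edgeR), and among Il21r intervals at -0.22 ± 0.15 (SE; adjusted p = 0.59, edgeR), 2.2 kb beyond the Il21r gene body. The sums had log2 fold changes of 0.03 ± 0.08 for Il4ra (SE; edgeR adjusted p = 0.891; 95% interval 0.920-fold to 1.14-fold) and -0.06 ± 0.07 for Il21r (SE; edgeR adjusted p = 0.75; 95% interval 0.866-fold to 1.06-fold).

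Il6ra encodes the chain that captures interleukin-6. Its strongest interval lay 40.8 kb downstream of the start, near the far end of the gene (chromosome 3, 89872338 to 89872538), with 40.4, 43.9 and 45.8 CPM in N440K libraries, against 41.5, 39.5 and 54.5 CPM in wild type libraries. The start itself was weaker, with 12.2, 15.9 and 14.1 CPM in N440K libraries, against 14.3, 12.8 and 15.02 CPM in wild type libraries. Neither separated the genotypes. An interval within the gene at 89878101 to 89878301 had 7.75, 10.4 and 9.37 CPM in N440K libraries, against 13.6, 14.8 and 13.7 CPM in wild type libraries. All N440K libraries were below all wild type libraries there, and the log2 fold change of -0.62 ± 0.27 (SE) did not pass (edgeR adjusted p = 0.304). The Il6ra sum had -0.05 ± 0.09 (SE; edgeR adjusted p = 0.849; 95% interval 0.857-fold to 1.09-fold).

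Ifngr1, the ligand-binding chain of the interferon-gamma receptor, held 26 tested intervals, of which 10 lay more than 60 kb upstream in a stretch of 233 kb that separates it from Olig3. The interval at its start (chromosome 10, 19591907 to 19592107) was the strongest, with 34.9, 53.7 and 37.5 CPM in N440K libraries, against 39.0, 47.8 and 40.8 CPM in wild type libraries, and the genotypes overlapped. The summed signal was 445, 458 and 458 CPM in N440K libraries, against 399, 394 and 434 CPM in wild type libraries. Every N440K sum was above every wild type sum. The log2 fold change of 0.15 ± 0.07 (SE) still did not pass the test (edgeR adjusted p = 0.289, unadjusted p = 0.0418). Its 95% interval, which is also unadjusted, was 1.01-fold to 1.22-fold. With only intervals within 50 kb kept, the log2 fold change of the Ifngr1 sum was 0.08 (edgeR adjusted p = 0.684).

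Upstream of Ifngr1 several intervals stood apart by genotype without being called. Of the 26 intervals 6 had all N440K libraries above all wild type libraries, and none had the reverse. Over all tested intervals the shares were 8.34% and 8.95%. The interval 85.8 kb upstream (19506057 to 19506257) had 12.2, 8.54 and 11.5 CPM in N440K libraries, against 4.96, 2.88 and 6.44 CPM in wild type libraries, so that the log2 fold change was 1.18 ± 0.35 (SE; adjusted p = 0.0821, edgeR). An interval 25.9 kb upstream (19565992 to 19566192), named after its values were seen, had 28.2, 29.9 and 28.6 CPM in N440K libraries, against 19.2, 13.6 and 22.3 CPM in wild type libraries, so that the log2 fold change was 0.66 ± 0.20 (SE; adjusted p = 0.0913, edgeR). These 2 were the nearest of the Ifngr1 intervals to the threshold. At the edge of the distance rule, the last Ifngr1 interval inside, 97.3 kb from the gene body, had 13.8, 12.8 and 16.7 CPM in N440K libraries, against 14.9, 12.4 and 13.7 CPM in wild type libraries. The only interval of the 9 genes beyond the rule, at 100.3 kb, had 15.5, 12.8 and 12.5 CPM in N440K libraries, against 11.2, 7.82 and 19.3 CPM in wild type libraries.

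**Figure D5:**
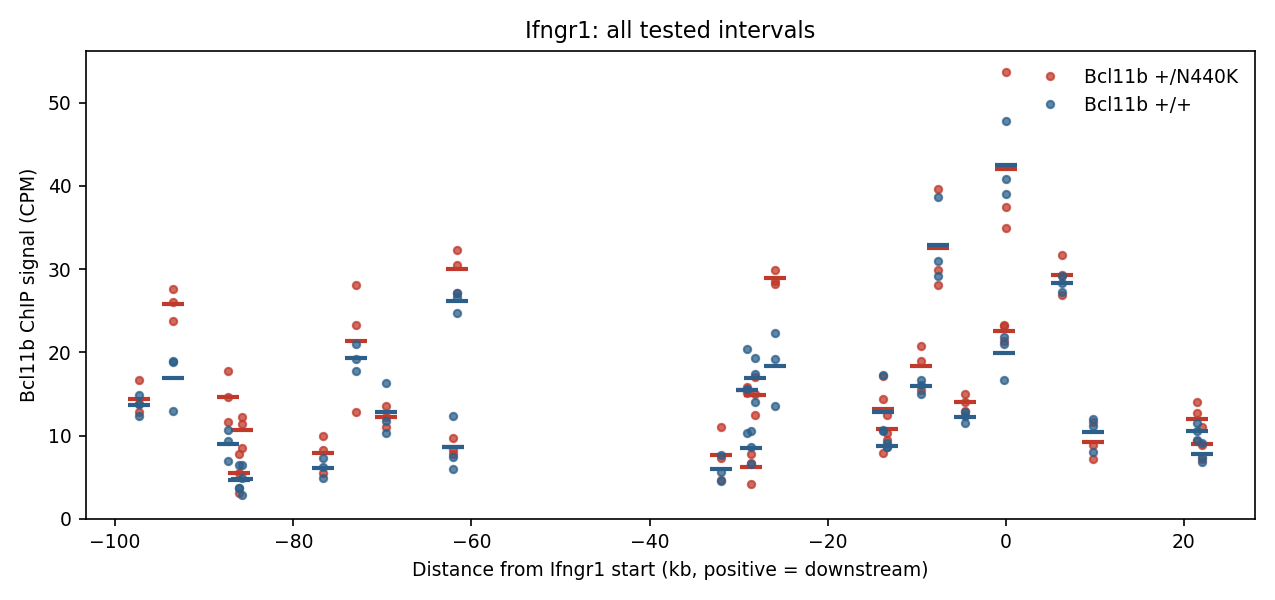
Bcl11b ChIP signal (CPM) at the 26 tested intervals of Ifngr1 against distance from the gene start (kb). Points are libraries and bars are means of 3, N440K in red and wild type in blue; the genotypes mix at the start, and the red points lie above the blue ones at 6 intervals, among them those 85.8 and 25.9 kb upstream.

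The wider pathway and other receptors were examined through 50 further genes: 27 receptor chains, 4 Jak kinases, 7 Stats and 12 other negative regulators. The receptor list was not limited to the class described above, and Kit is among those outside it. Of the 50 genes, 47 had tested intervals, 373 in all. Among these intervals 1 was called higher and 4 lower (edgeR). Over all tested intervals 1.14% were called, 0.46% higher and 0.681% lower. The number called was close to that background. The calls named here are sensitive to the tool: DESeq2 called none of the 5, with adjusted p from 0.130 to 0.612. The 4 lower calls were 2 each at Il6st, a signal-transducing receptor chain, and Stat3, a Stat transcription factor, and neither gene passed on summed signal. At Stat3 an interval inside the gene (chromosome 11, 100898025 to 100898225) had 3.32, 4.88 and 2.60 CPM in N440K libraries, against 12.4, 12.4 and 13.3 CPM in wild type libraries. The log2 fold change was -1.82 ± 0.36 (SE; adjusted p = 0.00224, edgeR), with no overlap between genotypes, and it was called in each of the other alternatives that held it. A second Stat3 interval beside it (100898425 to 100898625) changed by -1.63 ± 0.41 on the log2 scale (SE; adjusted p = 0.0259, edgeR) and lost its call under 7 of 12 alternatives.

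At Il6st an interval inside the gene (chromosome 13, 112474437 to 112474637) had 3.88, 6.10 and 6.25 CPM in N440K libraries, against 11.2, 10.7 and 16.3 CPM in wild type libraries (log2 fold change -1.24 ± 0.33, SE; edgeR adjusted p = 0.038). An interval 25.9 kb outside Il6st had -0.94 ± 0.26 (SE; edgeR adjusted p = 0.0478). These calls were lost under 7 and 10 of 13 alternatives. The higher call was 19.5 kb from Il2ra, the interleukin-2 receptor alpha chain, with 0.98 ± 0.27 (SE; edgeR adjusted p = 0.0481), lost under 9 of 13. The sums of Il6st and Stat3 had values short of the threshold (log2 fold changes -0.05 and -0.20; edgeR adjusted p = 0.822 and 0.213).

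Of the 24 receptor genes with tested intervals, Lifr and Kit passed on summed signal, both lower. Over all genes 3.34% were called, 1.06% higher and 2.28% lower. Neither Lifr nor Kit held a called interval. Lifr, the leukaemia inhibitory factor receptor, had 12.6, 11.3 and 9.84 CPM in N440K libraries, against 27.3, 25.9 and 27.5 CPM in wild type libraries, over 3 intervals (log2 fold change -1.25 ± 0.22, SE; edgeR adjusted p = 0.000621). Its call was lost in 1 of 13 alternatives, with intervals at least 500 bp apart (0.0908). Kit, the stem cell factor receptor of early progenitors, had 71.6, 65.8 and 68.4 CPM in N440K libraries, against 94.2, 91.4 and 95.8 CPM in wild type libraries (log2 fold change -0.45 ± 0.11, SE; edgeR adjusted p = 0.0169; lost under 5 of 13). The genotypes did not overlap at either gene. All 4 Jak kinases and the remaining Socs genes (Socs4, Socs5, Socs6 and Socs7) did not pass, with log2 fold changes of the sums from -0.14 to 0.06.

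Loci of marker genes were read in the same table. T cell genes (Cd3e, Cd4, Cd8a, Lck and Themis) had 43 tested intervals at 5 of 5 genes, with 0 called (edgeR), and summed to 809.8 to 874 CPM in N440K libraries and 848.5 to 957.5 CPM in wild type libraries. B cell loci had 13 intervals at 3 of 5 genes, with 127 to 144 CPM in N440K libraries and 141 to 157 CPM in wild type libraries, and Cd79a and Ms4a1 had no tested interval. Myeloid loci had 21 intervals at 2 of 5 genes. They summed to 259.9 to 277 CPM in N440K libraries and 267 to 357 CPM in wild type libraries. Itgam was lower (log2 fold change of the sum -0.38 ± 0.10, SE, edgeR adjusted p = 0.0318). It had 175, 166 and 173 CPM in N440K libraries, against 267, 178 and 233 CPM in wild type libraries. Wild type replicate 2 thus lay close to the N440K libraries. Spi1, the other tested myeloid gene, lay on the opposite side and did not pass (0.10, edgeR adjusted p = 0.713). Csf1r, Cd14 and Lyz2 had no tested interval. Erythroid loci had 3 intervals at 2 of 3 genes, with 39.5 to 48.7 CPM in N440K libraries and 38.7 to 47.4 CPM in wild type libraries, and Hba-a1 had no tested interval. Thymic epithelial loci had 11 intervals at 2 of 3 genes, with 95.2 to 127 CPM in N440K libraries and 109 to 138 CPM in wild type libraries, and Krt5 had no tested interval. No interval of these lists was called, where 1.14% of all tested intervals were. Itgam was the only one of their genes called on the sum, where 3.34% of all genes were. These values are Bcl11b binding at the loci, not expression, and the part of cell composition in the results was not tested.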

How the data were processed

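Bcl11b ChIP-seq of mouse thymocytes was given as 2 tables for 6 ChIP libraries. The authors deposited raw counts in 93708 intervals of equal width, and CPM values for 63098 of them; the deposited CPM were counts divided by 1 constant per library, and 100% of values came back as whole reads (tolerance 0.01). The build is mm10, per the submitters' processing notes, which list, without roles, edgeR 3.38.2, MACS2, Bowtie2 2.3.5, bedtools, SAMtools 1.9 and fastp 0.20.0. The peak calling settings are not given in the sources used. The tested intervals are those that filterByExpr keeps, which equal the deposited CPM table. Counts were TMM-scaled and tested with edgeR 4.0.16 (glmQLFit, glmQLFTest; genotype the only term; two-sided; Benjamini-Hochberg over all intervals, or over all genes for counts summed per gene). The SE is the log2 fold change over the root of F. The 95% intervals are 1.96 SE wide on each side and are not adjusted for the number of tests. Differences between intervals of a gene used diffSpliceDGE. Gene bodies were those of RefSeq for assembly GRCm38.p6; where gene bodies overlapped, the shortest was taken unless a member was among them. Alternatives used DESeq2 1.42.0 and limma 3.58.1 (R 4.3.3); tables used Python 3.11.15. The scripts were tested on simulated data. Named for each gene were the strongest interval, that with the smallest p, that nearest the start and every called interval. The members and lists were chosen with earlier results of these data known. Libraries differed more than sampling noise, with a chi-square per degree of freedom of 1.24 to 1.42 within genotypes. Same-numbered libraries were not taken as pairs. A summed result of the further pathway genes is not reported here.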

Additional observations from a re-analysis of the deposited data

How the results depend on the processing

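Of 100 intervals, 2 were called, both higher and 0 lower. On summed signal 1 of 9 genes was called, and 3 had an unadjusted edgeR p under 0.05. With DESeq2, 0 intervals and 0 genes were called (8 intervals and 1 gene at an unadjusted p under 0.05), and at an adjusted p of 0.01, 0 and 0. Limma voom and loess offsets (span 0.3) each called 1 interval, higher. Intervals at least 500 bp apart, added after seeing the data, gave 1 interval and 0 genes. Leaving out 1 library gave 0 to 2 intervals, all higher, and 0 to 1 genes; intervals numbered 0 and genes 0 without wild type replicate 3, N440K replicate 1 or N440K replicate 2, and genes also 0 without wild type replicate 1. Without N440K replicate 3 the start interval of Socs3 took the place of the weaker call. The F statistic called 1 gene where Simes called 0. The median log2 fold change of 0.10 stayed between 0.06 and 0.13, with 0.08 for total counts, 0.09 for loess offsets and 0.08 within 50 kb. No filter, total counts and the 50 kb rule each gave 2 intervals and 1 gene. The cause of the lost calls was not tested. With the replicate block 2 intervals and 1 gene were called, and no call changed; same-numbered libraries had deviations correlated at -0.0037, 0.0277 and 0.0576, so the numbers were not shown to pair them.

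Values near 0 that did not pass the test changed sign. Such log2 fold changes were 0.028 for the upstream Il7r interval (limma voom); -0.018 for the Il6ra and -0.0084 for the Cish start intervals (total counts); -0.0015 for the strongest Socs3 interval, 0.048 for the Il7r and -0.0027 for the Cish sum (loess offsets). With no filter they were 0.0085 for the strongest Socs2 interval, 0.02 for the strongest Socs1 interval and 0.19 for the Il7r sum, and -0.087 for the Cish sum with intervals 500 bp apart. Leaving out 1 library gave -0.21 to 0.2 for the Il7r sum, -0.0041 to 0.037 for Cish, -0.14 to 0.0049 for Socs2 and -0.11 to 0.041 for Il6ra. The Il7r intervals ran from -0.14 to 0.32 (start) and -0.38 to 0.39 (upstream). At Socs1 the range was -0.083 to 0.044 (strongest) and -0.012 to 0.31 (start), at Socs2 -0.031 to 0.18 (gene end) and -0.19 to 0.11 (strongest), and at the Cish start -0.11 to 0.2. At Il6ra it was -0.089 to 0.092 (start) and -0.17 to 0.1 (strongest), at the Ifngr1 start -0.24 to 0.077 and at the strongest Socs3 interval -0.046 to 0.17. The sums of Il7r, Socs2 and Cish had the largest SEs of the 9 genes, at 0.27, 0.13 and 0.13 on the log2 scale.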
